A study of Mus musculus with 6 samples.

Results

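The presynaptic active zone is the patch of nerve terminal membrane where synaptic vesicles dock, are primed and fuse. Described here are 10 genes of its scaffold and priming proteins, Rims1, Rims2, Rims3, Bsn, Pclo, Erc1, Erc2, Unc13a, Unc13c and Rimbp2. They were chosen by name as cytoplasmic proteins of this structure, with earlier results of these data known. Their symbols were matched to gene identifiers. They are 10 of the 55401 genes in the count tables, and all 10 passed the filter on low counts, which left 19969 genes. RNA of the dorsal hippocampus was sequenced in 3 samples that had received Control-ASO and 3 that had received Snhg11-ASO. An ASO (antisense oligonucleotide) is a chemically modified DNA-like oligomer that base-pairs with its target transcript and leads to its degradation. Snhg11-ASO was directed against exon 5 of the long noncoding RNA Snhg11, and Control-ASO was a scrambled sequence of the same nucleotides. All mice were WT littermates of the Ts65Dn line, and the labels and methods give no other difference between the groups than the ASO. They were 4 months old and received 50 μg of ASO per hemisphere into the dorsal dentate gyrus (DG) on both sides, and tissue was taken on day 3 after the injection. The RNA came from the whole dorsal hippocampus, not from the injected DG or from sorted neurons.

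Active zone scaffolds hold together calcium channels, docked vesicles and the fusion machinery. RIM proteins bind Rab3 on the vesicle, recruit calcium channels and activate Munc13, which in turn opens syntaxin for vesicle priming. RIM-binding proteins link RIMs to the calcium channels, ELKS proteins bind RIMs, and Bassoon and Piccolo are very large scaffolds that span the vesicle cluster and the release site. In the hippocampus these proteins are known for setting release probability and for presynaptic forms of long-term plasticity at the mossy fiber terminals of granule cells.

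The Control-ASO libraries held 28951250 to 34293344 read pairs counted on genes and the Snhg11-ASO libraries 38556524 to 43997537, so the groups did not overlap in depth. Its part in the results was not tested. Each of the 10 genes had at least 352 counts in every sample. Levels are given as CPM, the usual rate of a gene's counts relative to the library's total over the genes tested, scaled between libraries by TMM (trimmed mean of M-values). Snhg11, the target, measured 551, 436 and 209 CPM under Control-ASO and 139, 65.4 and 69.4 CPM under Snhg11-ASO, so the groups did not overlap (log2 fold change -2.13, edgeR adjusted p = 0.395, DESeq2 adjusted p = 6.2e-05). Snhg11-ASO replicate 1 stood apart from the other libraries. Its Spearman correlation with them across genes was 0.955 to 0.959, against 0.979 to 0.991 among the other 5. Its summed levels of 8 astrocyte, 8 oligodendrocyte and 8 microglia markers were 4204, 1691 and 210 CPM, against 7090 and 7126, 3720 and 2948, and 549 and 641 CPM in the other Snhg11-ASO samples and 4793 to 7071, 1635 to 3015, and 300 to 583 CPM in the Control-ASO samples. Values without this library are given beside the results that it moves most.

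Promoter sequences from RefSeq (GRCm38.p6) were matched by symbol for 9 of the 10 genes, all but Rims2. Their starts are those of RefSeq, and that of Rims1 lies 164 bases from the gene start given below. The 250 bases upstream of the start are shown for Rims1, Rims3 and Pclo, which lay lower in every Snhg11-ASO sample than in any Control-ASO sample, and for Rimbp2, which had the largest difference in the other direction. They are written 5′ to 3′ on the strand of the gene, and capitals mark the GC box (GGGCGG, or CCGCCC where it lies on the other strand).
Rims1, chr1:22806159-22806408, minus strand: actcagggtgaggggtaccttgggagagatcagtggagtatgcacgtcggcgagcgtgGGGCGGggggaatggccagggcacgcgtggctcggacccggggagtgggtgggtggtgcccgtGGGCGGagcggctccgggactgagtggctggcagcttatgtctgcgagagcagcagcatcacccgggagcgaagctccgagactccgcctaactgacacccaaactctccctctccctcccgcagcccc
Rims3, chr4:120854549-120854798, plus strand: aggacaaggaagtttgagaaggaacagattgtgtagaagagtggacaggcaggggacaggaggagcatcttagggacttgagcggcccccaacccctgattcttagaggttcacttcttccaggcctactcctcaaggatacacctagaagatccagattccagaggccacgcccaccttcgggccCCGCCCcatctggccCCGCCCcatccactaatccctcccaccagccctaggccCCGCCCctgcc
Pclo, chr5:14514668-14514917, plus strand: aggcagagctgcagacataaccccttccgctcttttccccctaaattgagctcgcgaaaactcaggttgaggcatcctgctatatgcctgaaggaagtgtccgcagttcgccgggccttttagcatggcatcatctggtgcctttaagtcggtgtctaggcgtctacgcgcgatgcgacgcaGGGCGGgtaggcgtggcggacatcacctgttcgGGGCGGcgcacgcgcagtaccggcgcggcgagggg
Rimbp2, chr5:128953487-128953736, minus strand: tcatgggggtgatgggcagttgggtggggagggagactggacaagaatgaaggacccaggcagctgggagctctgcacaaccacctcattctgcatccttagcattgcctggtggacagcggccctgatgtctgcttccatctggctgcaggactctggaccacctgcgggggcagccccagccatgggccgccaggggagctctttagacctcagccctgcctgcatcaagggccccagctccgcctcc

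Rims1 holds 2 GC boxes in this window, Rims3 holds 3, Pclo holds 2 and Rimbp2 holds 0. Over the 9 windows, 6 had a GC box, in Rims1, Rims3, Pclo, Erc1, Unc13a and Unc13c, where 32.7% of the 32851 promoters in the table had one in the same 250 bases. A cyclic AMP response element (TGACGTCA) was found in 0 of the 9 windows and in 1.55% of all promoters, and TATAAA in 0 of the 9 and in 12.4% of all. The 9 windows had a median GC content of 63.6%, against 52.4% over all promoters, and a median of 19 CG pairs against 6. Rims3, with 6 CG pairs, and Rimbp2, with 4, were the poorest in CG beside Unc13c, with 6, while Pclo had 25 and Rims1 19. These matches describe letters only and were not compared with binding.

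The first question was whether the active zone genes differed between Snhg11-ASO and Control-ASO. None of the 10 passed an adjusted p of 0.05 in edgeR's quasi-likelihood test, in which 0 of the 19969 genes passed (0.0%), with 1619 genes at an unadjusted p under 0.05 and a smallest adjusted p of 0.237. In DESeq2, the tool used in the study, 258 of the 17966 genes with an adjusted p passed (1.44%), and 0 of the 10 were among them. Rims1, Rims2, Rims3 and Pclo, 4 of 10, were lower in Snhg11-ASO at an unadjusted p under 0.05, against 4.43% of all genes tested, and 0 of 10 were higher, against 3.68%. The number lower at that p was 2 without Control-ASO replicate 1, Control-ASO replicate 3 or Snhg11-ASO replicate 3. Of all genes, 2.59%, 2.74% and 3.48% were lower in those fits. It was 3 without Control-ASO replicate 2, Snhg11-ASO replicate 1 or Snhg11-ASO replicate 2, against 4.84%, 5.54% and 3.75%. Rims3 was among them in each of these 6 fits. The same 4 genes, and no other of the 10, had every Snhg11-ASO sample below every Control-ASO sample, against 7.7% of all genes, and 0 of 10 had every sample above, against 7.73%. The median log2 fold change was -0.21 over the 10 genes and 0.0097 over all genes tested, with 7 genes lower and 3 higher. With 3 samples against 3, an exact permutation test of a single gene cannot go below p = 0.1.

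**Figure D1:**
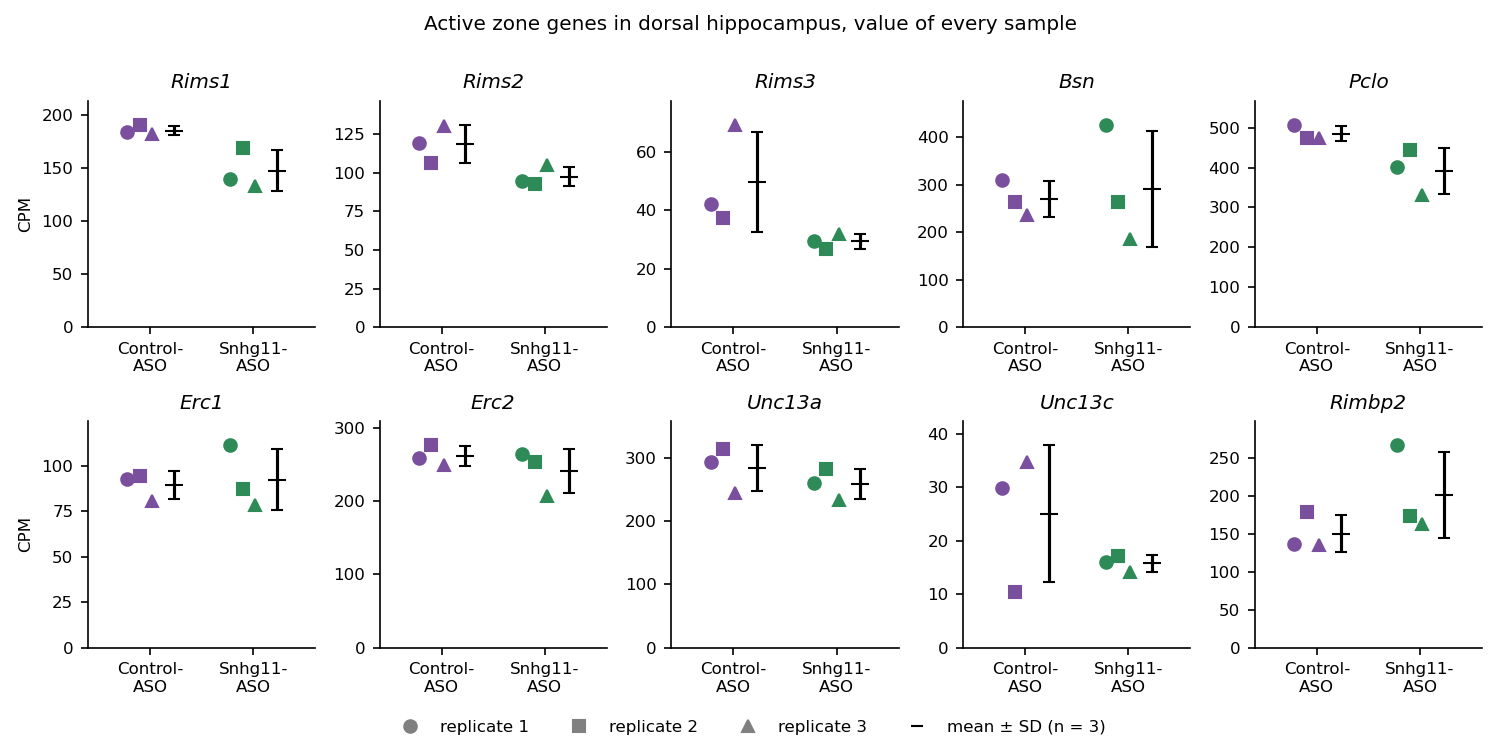
Level of each of the 10 genes in every sample (vertical axis, CPM, from 0), with Control-ASO in purple and Snhg11-ASO in green, the replicate number as the shape of the point, and the mean ± SD of each group in black. Rims1, Rims2, Rims3 and Pclo have all 3 Snhg11-ASO points below all 3 Control-ASO points, and the groups overlap in the other 6 genes.

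Among the RIMs, Rims1 encodes RIM1, the main RIM scaffold of hippocampal terminals, and lies on the minus strand at chr1:22286251-22805994 (GRCm38, as all positions here). It measured 184, 190 and 182 CPM under Control-ASO and 140, 169 and 133 CPM under Snhg11-ASO (values are always listed as replicates 1, 2 and 3). The Control-ASO samples lay close together (185 ± 4.44 CPM, SD, n = 3), and Snhg11-ASO replicate 2 came nearest to them. The Snhg11-ASO mean was 147 ± 19.1 CPM (SD, n = 3), 79.6% of the Control-ASO mean. The log2 fold change was -0.33 with a standard error of 0.11 (edgeR unadjusted p = 0.0198, adjusted p = 0.550). Without Snhg11-ASO replicate 2, DESeq2 gave Rims1 a log2 fold change of -0.44 and an adjusted p of 0.0323, with 1.64% of genes passing. In that fit the other 9 genes did not pass, and Rims1 did not pass in any other alternative.

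Rims2 encodes RIM2, which overlaps with RIM1 in function, and lies on the plus strand at chr15:39198261-39684372. It measured 119, 106 and 130 CPM under Control-ASO and 94.6, 92.9 and 105 CPM under Snhg11-ASO. The highest Snhg11-ASO value and the lowest Control-ASO value, 104.7 and 106.0 CPM, were nearly level. The means were 118 ± 12.2 and 97.4 ± 6.38 CPM (SD, n = 3 each), with a log2 fold change of -0.28. Its standard error was 0.11 and its unadjusted p 0.0317 (edgeR adjusted p = 0.578).

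Rims3 encodes RIM3, a short RIM that holds only the carboxy-terminal C2 domain, and lies on the plus strand at chr4:120854816-120896579. It measured 42.4, 37.5 and 69.2 CPM under Control-ASO and 29.6, 26.7 and 31.9 CPM under Snhg11-ASO. Control-ASO replicate 3 stood well above the other libraries, whereas the Snhg11-ASO samples were close together (29.4 ± 2.61 CPM, SD, n = 3). The log2 fold change was -0.76 with a standard error of 0.23 (edgeR unadjusted p = 0.0140, adjusted p = 0.530), the largest of the 10 in size. Without Control-ASO replicate 3 it was -0.45. In that library Slc17a6, a vesicular glutamate transporter named here after its values were seen, was also high, at 41.7 CPM against 16.6 to 20.6 CPM in the other 5. The part of this difference between libraries in the Rims3 result was not tested.

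The closest relative of Rims3 is Rims4, which encodes the other short RIM. It measured 35.1, 30.8 and 40.9 CPM under Control-ASO and 30.4, 27.2 and 27.5 CPM under Snhg11-ASO. The groups did not overlap, and the log2 fold change was -0.33 (edgeR unadjusted p = 0.0412, adjusted p = 0.595, and unadjusted p = 0.0505 with the replicate number as a block). None of the 4 RIM genes passed the adjusted threshold with all samples.

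Of the giant scaffolds, Piccolo lay lower in every Snhg11-ASO sample and Bassoon did not. Pclo, on the plus strand at chr5:14514918-14863459, measured 506, 475 and 474 CPM under Control-ASO and 402, 445 and 331 CPM under Snhg11-ASO. Its groups did not overlap, Snhg11-ASO replicate 3 was the lowest sample, and the means were 485 ± 18.2 and 393 ± 57.6 CPM (SD, n = 3 each). The log2 fold change was -0.30 with a standard error of 0.13 (edgeR unadjusted p = 0.0460, adjusted p = 0.601), and it was -0.20 without Snhg11-ASO replicate 3. Bsn, on the minus strand at chr9:108096022-108190384, measured 311, 264 and 236 CPM under Control-ASO and 426, 264 and 185 CPM under Snhg11-ASO. Its Snhg11-ASO samples lay on both sides of the Control-ASO samples, with replicate 1 the highest and replicate 3 the lowest of all 6. The log2 fold change was 0.11 (standard error 0.29, 95% interval -0.57 to 0.79), and -0.27 without Snhg11-ASO replicate 1.

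Both ELKS genes overlapped between the groups. Erc1 encodes ELKS, which is made in many tissues beside brain, and lies on the minus strand at chr6:119570796-119848167. It measured 92.8, 94.3 and 80.4 CPM under Control-ASO and 111, 87.2 and 78.4 CPM under Snhg11-ASO, with Snhg11-ASO replicate 1 the highest and replicate 3 the lowest. Its log2 fold change was 0.05 (95% interval -0.29 to 0.39), and -0.11 without Snhg11-ASO replicate 1. Erc2 encodes CAST, the brain form, and lies on the plus strand at chr14:27622428-28478537. It measured 259, 276 and 249 CPM under Control-ASO and 264, 253 and 207 CPM under Snhg11-ASO. Snhg11-ASO replicate 3 was again the lowest, the groups overlapped, and the log2 fold change was -0.12 (95% interval -0.39 to 0.16), and -0.19 without Snhg11-ASO replicate 1.

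Of the Munc13 genes, Unc13a encodes Munc13-1, the priming factor of most glutamatergic terminals in the forebrain, and lies on the minus strand at chr8:71624417-71671757. It measured 295, 314 and 245 CPM under Control-ASO and 261, 283 and 234 CPM under Snhg11-ASO. The groups overlapped, and the log2 fold change was -0.13 (95% interval -0.43 to 0.16). Each Snhg11-ASO sample was below the Control-ASO sample of the same number, but the labels do not mark equal numbers as pairs. Its exons overlap those of Colgalt1 on the other strand, and 2.90% of its read pairs were counted on that strand, against 0.0460% to 0.493% for the other 9 genes. Unc13b, which encodes Munc13-2, measured 109, 114 and 126 CPM under Control-ASO and 93.0, 107 and 105 CPM under Snhg11-ASO. These groups did not overlap, and the log2 fold change was -0.20 (edgeR unadjusted p = 0.0865, adjusted p = 0.664).

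Unc13c encodes Munc13-3, known mainly from the cerebellum, and lies on the minus strand at chr9:73479422-73968966. It measured 29.8, 10.5 and 34.7 CPM under Control-ASO and 16.1, 17.2 and 14.1 CPM under Snhg11-ASO. The Snhg11-ASO samples were close together, while the Control-ASO samples spread over a range that reached below and above them. The log2 fold change was -0.66 with a standard error of 0.40 (edgeR unadjusted p = 0.141, adjusted p = 0.709). It ranged from -1.03 without Control-ASO replicate 2 to -0.35 without Control-ASO replicate 3. The summed level of 8 choroid plexus markers also differed between the Control-ASO samples, at 1921, 38.2 and 1241 CPM, and was 1308, 127 and 70.5 CPM in the Snhg11-ASO samples. All 8 markers were detected in every sample, and their part in the Unc13c values was not tested.

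Rimbp2 encodes RIM-BP2, the main RIM-binding protein of hippocampal terminals, and lies on the minus strand at chr5:128757791-128953486. It measured 137, 179 and 136 CPM under Control-ASO and 267, 174 and 163 CPM under Snhg11-ASO. Snhg11-ASO replicate 1 was far above all others, and Control-ASO replicate 2 lay above the other Snhg11-ASO samples. The log2 fold change was 0.42 with a standard error of 0.21 (edgeR unadjusted p = 0.0880, adjusted p = 0.667) with all samples and 0.16 without Snhg11-ASO replicate 1. Tspoap1, which encodes RIM-BP1, measured 226, 179 and 163 CPM under Control-ASO and 170, 184 and 162 CPM under Snhg11-ASO. Its groups overlapped, and its log2 fold change was -0.14 (edgeR adjusted p = 0.815).

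**Figure D2:**
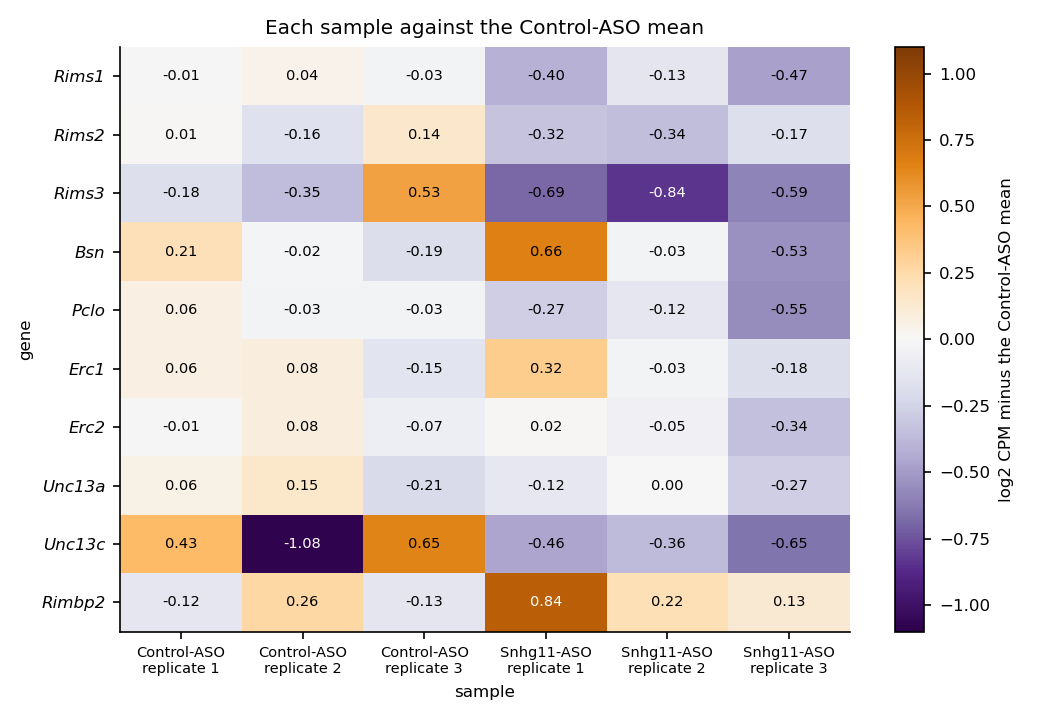
Deviation of each sample (columns) from the mean of the Control-ASO samples for each of the 10 genes (rows), as log2 CPM, in purple below that mean and in orange above it. Rims1, Rims2, Rims3, Pclo and Unc13c are at -0.12 or below in all 3 Snhg11-ASO samples, and Snhg11-ASO replicate 1 is at 0.66 for Bsn and 0.84 for Rimbp2.

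Snhg11-ASO replicate 1 was the highest of the 6 samples for Bsn, Erc1 and Rimbp2, and Snhg11-ASO replicate 3 was the lowest for Rims1, Bsn, Pclo, Erc1, Erc2 and Unc13a. Summed over the 10 genes, the level was 1975, 1947 and 1836 CPM under Control-ASO and 2011, 1811 and 1483 CPM under Snhg11-ASO. The sum overlapped between the groups through Snhg11-ASO replicate 1. This library also had the lowest sum of 12 neuron markers, 4508 CPM against 5096 to 5747 CPM in the other 5, and all 12 were detected in every sample. Of 9 interneuron markers, 7 were lower and 2 higher, with a median log2 fold change of -0.23 with or without this library. Their sum was 543 to 587 CPM under Control-ASO and 464 to 561 CPM under Snhg11-ASO. The median was 0.07 for 6 dentate granule cell markers and -0.03 for 9 CA pyramidal markers. The part of tissue composition in the results for the 10 genes was not tested. In bulk tissue, fewer cells of a type and less RNA per cell cannot be told apart.

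**Figure D3:**
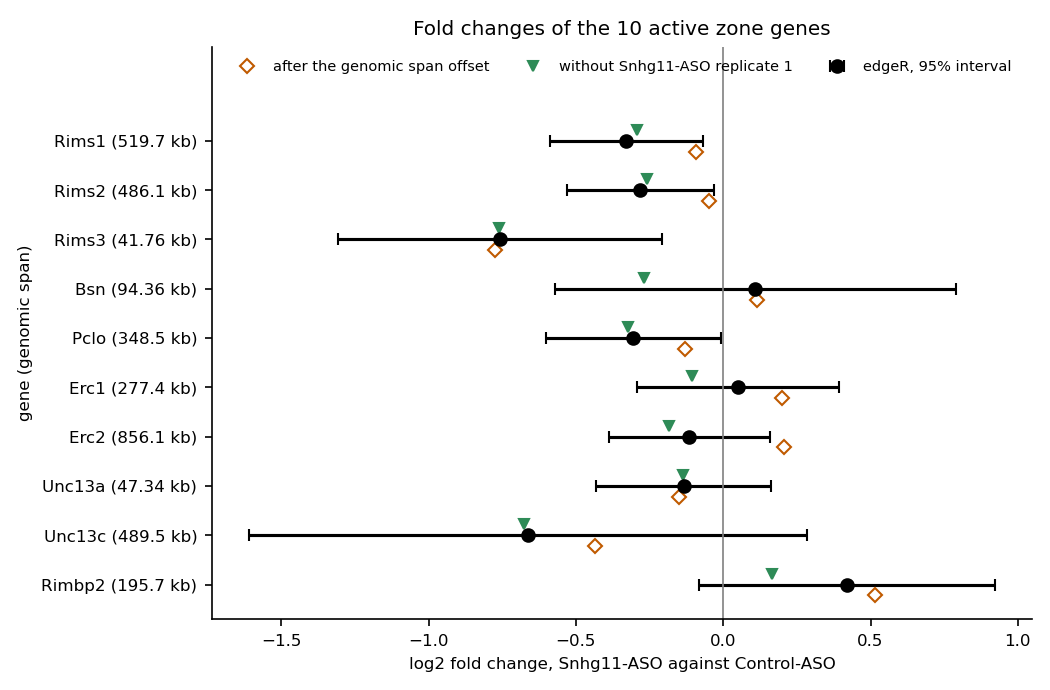
Log2 fold change of each gene, Snhg11-ASO against Control-ASO (horizontal axis), with genes and their genomic spans on the vertical axis. Black points and bars are edgeR estimates with 95% intervals, green triangles the estimate without Snhg11-ASO replicate 1, and open diamonds the estimate after the genomic span offset. The intervals of Rims1, Rims2, Rims3 and Pclo lie below 0, and the diamonds of Rims1, Rims2 and Pclo are at -0.09, -0.05 and -0.13.

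Since several of these genes have close relatives that can act at the same release site, ratios between family members were compared in each sample by an exact permutation test over 6 pairs of genes. They are ratios of CPM, not corrected for gene length, so only their differences between the groups are read. The log2 ratio of Rims2 to Rims3 was 1.49, 1.5 and 0.91 under Control-ASO and 1.68, 1.80 and 1.71 under Snhg11-ASO. These groups did not overlap, with a difference of 0.43 (exact permutation p = 0.1, the smallest possible, and 0.6 adjusted over the 6 pairs). Without Control-ASO replicate 3 this difference was 0.24, and with the genomic span offset, described with the gene lengths, it was 0.68. The ratio of Rims1 to Rims2 ranged from 0.35 to 0.87 over the 6 samples, and the difference between the groups was -0.06 (exact permutation p = 0.8). The ratio of Pclo to Bsn was 0.70, 0.84 and 1.01 under Control-ASO and -0.08, 0.75 and 0.84 under Snhg11-ASO. Snhg11-ASO replicate 1 was far below the other samples, and the groups overlapped (difference -0.35, exact permutation p = 0.4, and -0.06 without that sample). The ratio of Erc2 to Erc1 was 1.48, 1.55 and 1.63 against 1.25, 1.54 and 1.40, again with overlap (difference -0.16, exact permutation p = 0.2, and -0.09 without Snhg11-ASO replicate 1). For Unc13c to Unc13a the Control-ASO samples ranged from -4.91 to -2.82 and the Snhg11-ASO samples from -4.06 to -4.02, and for Rims1 to Rims3 they ranged from 1.39 to 2.34 and from 2.06 to 2.66. The differences of these pairs were -0.36 and 0.37 (exact permutation p = 0.7 and 0.5). With the genomic span offset the difference of Rims1 to Rims3 was 0.63 (exact permutation p = 0.1, the smallest possible), and that of Unc13c to Unc13a was -0.12. None of the 6 pairs passed at an adjusted p of 0.05, which this number of samples cannot reach.

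**Figure D4:**
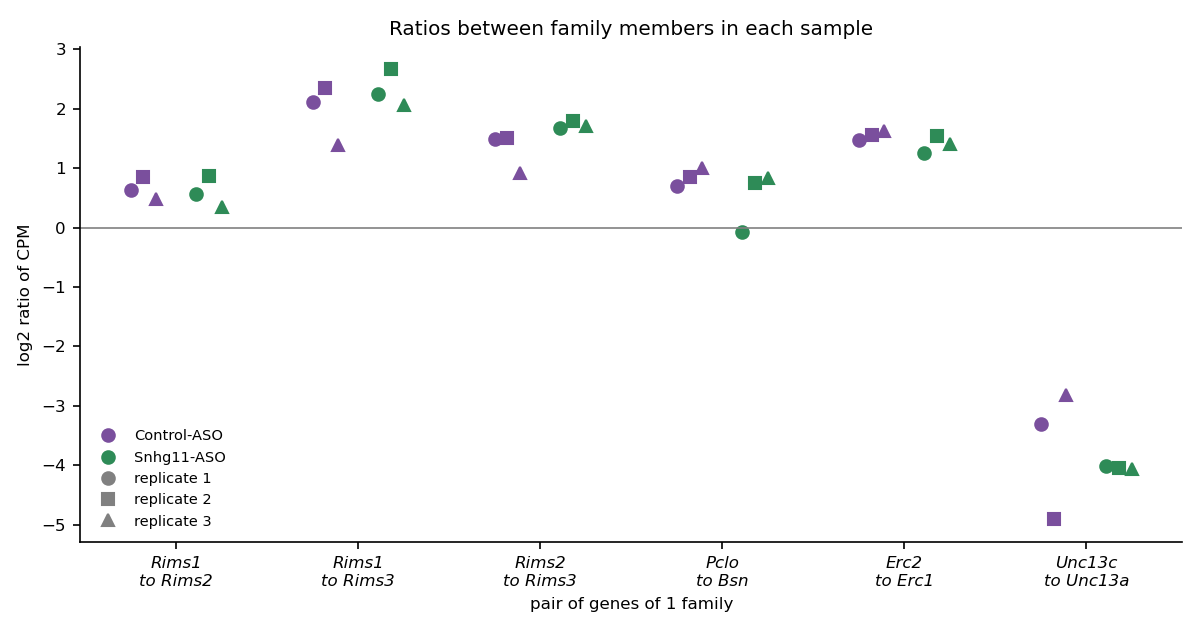
Log2 ratio of CPM between genes of 1 family (vertical axis) for 6 pairs (horizontal axis), with Control-ASO in purple, Snhg11-ASO in green and the replicate number as the shape of the point. The groups overlap in 5 pairs, and for Rims2 to Rims3 the Snhg11-ASO samples lie between 1.68 and 1.80, above the Control-ASO samples.

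Levels of different genes can be compared only per length, here as CPM per kb of merged exons. In the Control-ASO samples the order of these levels was Erc2 (26.9 ± 1.41, SD, n = 3), Rims1 (25.2 ± 0.603), Unc13a (22.5 ± 2.84), Pclo (21.6 ± 0.812), Rimbp2 (19.0 ± 3.06) and Bsn (17.0 ± 2.38). Neighbours among these 6 overlapped between samples, so their order is not set beyond their spread. Rims2 followed at 11.4 ± 1.17 CPM per kb, with every Control-ASO sample below those of Bsn, and Rims3 at 6.23 ± 2.14, with every one below those of Rims2. Erc1 (5.48 ± 0.468) overlapped with Rims3, and Unc13c (2.84 ± 1.46) was the lowest, with no overlap with Erc1. In the Snhg11-ASO samples Rimbp2 came first, at 25.4 ± 7.19 CPM per kb, Rims1 was 4th and Unc13c last. The place of Rimbp2 rests on Snhg11-ASO replicate 1, since without it Erc2 came first at 23.6 CPM per kb and Rimbp2 followed at 21.2. Merged exons count every annotated exon once, so a gene with many exons that are not used in hippocampus is placed too low.

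The active zone genes are long. Their median genomic span, the distance from start to end of the gene, was 313 kb, against 16.9 kb over the genes tested, and 7 of the 10 were longer than 190 kb. Only Rims3 (41.8 kb), Unc13a (47.3 kb) and Bsn (94.4 kb) were shorter. Among all genes tested, those above 200 kb were mostly lower in Snhg11-ASO. Over all spans the Spearman correlation of log2 fold change with genomic span was only -0.02 (19945 genes). The medians were 0.04 from 20 to 50 kb and 0.03 from 50 to 100 kb. The median log2 fold change was -0.37 over the 223 genes above 500 kb, 90.1% of which were lower, and -0.13 over the 763 genes of 200 to 500 kb, whereas it was 0.01 over the 10776 genes below 20 kb. For the genes above 500 kb the median was -0.35 without Snhg11-ASO replicate 1. Rims1 (520 kb, log2 fold change -0.33) and Erc2 (856 kb, -0.12) belong to the longest class and lay above its median. Rims2 (486 kb, -0.28), Pclo (349 kb, -0.30) and Unc13c (490 kb, -0.66) lay below the median of their class, and Erc1 (277 kb, 0.05) above it. Rims3 belongs to the class of 20 to 50 kb, whose median was 0.04.

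**Figure D5:**
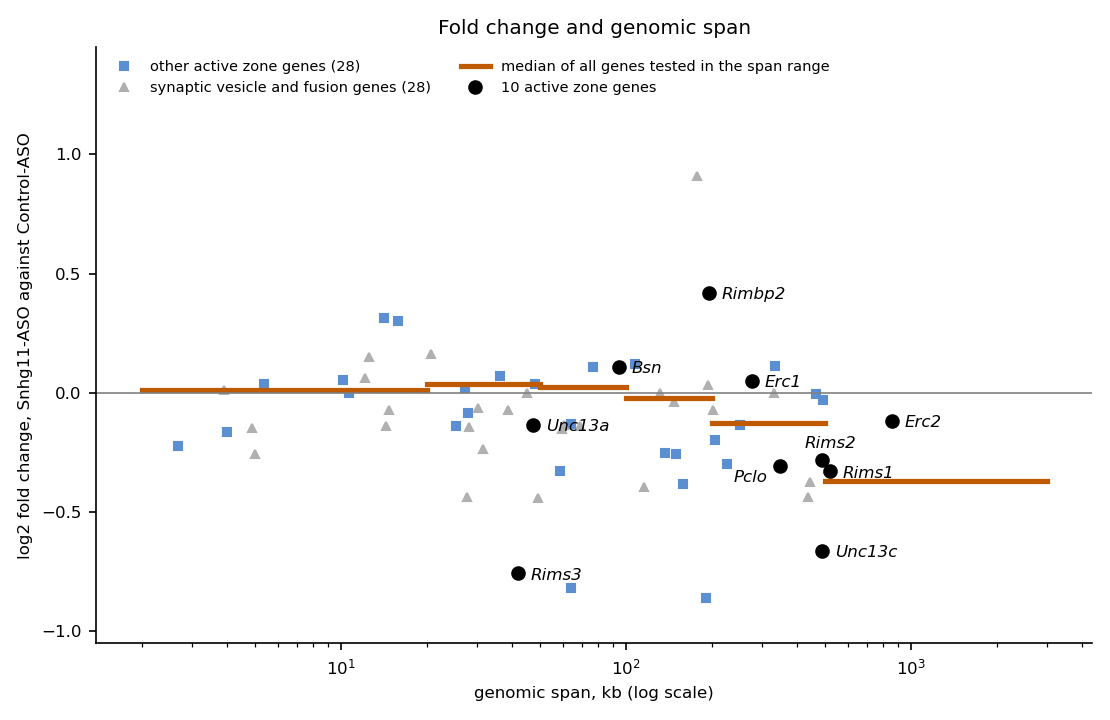
Log2 fold change, Snhg11-ASO against Control-ASO (vertical axis), by genomic span in kb on a log scale (horizontal axis) for the 10 active zone genes (black), 28 other active zone genes (blue) and 28 synaptic vesicle and fusion genes (grey), with the median of all genes tested in each span range as an orange line. The orange line reaches -0.37 above 500 kb, where Rims1 and Erc2 lie, and Rims3 stands at -0.76 in a range with a median of 0.04.

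When each sample's trend with genomic span was removed by an offset in the edgeR fit, 1 of the 10 genes, Rims3, was lower at an unadjusted p under 0.05, against 3.56% of the 19945 genes with a known span. Rims3 kept a log2 fold change of -0.77, with an unadjusted p of 0.0125 from edgeR. Rims1 was then at -0.09, Rims2 at -0.05 and Pclo at -0.13, and Erc2 turned from -0.12 to 0.21. Rimbp2 was at 0.51 and was higher at an unadjusted p of 0.0433 from edgeR, the only one of the 10, against 3.92% of all genes. The median of the 10 genes was -0.07 after the offset, and only Rims3 kept groups that did not overlap. The share of all genes without overlap after the offset was not computed, so this count has no background here. The adjusted p of all 10 stayed above 0.05.

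Other genes of the active zone were compared as a list of 28 partners, relatives and channels, all of which passed the filter on low counts. Their median log2 fold change was -0.11, with 18 lower and 10 higher, and 0 passed an adjusted p of 0.05 in edgeR. At an unadjusted p under 0.05, 4 of 28 were lower and 0 higher, against 4.43% and 3.68% of all genes. Groups did not overlap in 6 genes that were lower and 1 that was higher, against 7.7% and 7.73% of all genes, and after the span offset the median was -0.02. In the fit that blocks on the replicate number, an unadjusted p under 0.05 was met by 4 lower genes and 1 higher gene. Of all genes, 4.6% were lower at that p in this fit, and the share that was higher was not computed. Rims4 was then no longer among them, and Cacna1b, which encodes the pore of the N-type calcium channel, was (log2 fold change -0.38, edgeR unadjusted p = 0.00933), while Git1, a scaffold that binds Piccolo, was the 1 higher (0.33, edgeR unadjusted p = 0.0441). Cacna1b and Git1 were named after their values were seen. Apba1, which encodes the Munc18-binding and CASK-binding adaptor Mint1, was the first of them by p. It measured 163, 144 and 139 CPM under Control-ASO and 85.2, 83.3 and 77.7 CPM under Snhg11-ASO. The groups were far apart relative to their spread, the Snhg11-ASO mean was 55.2% of the Control-ASO mean, and the log2 fold change was -0.86 (standard error 0.09). In edgeR its adjusted p was 0.237, equal to the smallest of all genes, and in DESeq2 it passed with an adjusted p of 3.3e-10. After the span offset its log2 fold change was -0.76.

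The others lower at an unadjusted p under 0.05, beside Rims4, were vesicle GTPases that bind RIMs. Rab3b measured 17.4, 17.0 and 26.5 CPM under Control-ASO and 12.9, 9.45 and 12.3 CPM under Snhg11-ASO (log2 fold change -0.82, edgeR adjusted p = 0.492). Rab3c measured 342, 334 and 352 CPM under Control-ASO and 243, 293 and 300 CPM under Snhg11-ASO (log2 fold change -0.30, edgeR adjusted p = 0.563, and -0.18 after the span offset, where its unadjusted p was 0.156). In both genes every Snhg11-ASO sample was below every Control-ASO sample. Rab3a, the most abundant Rab3 of the list per length, was at 201, 203 and 209 against 167, 188 and 191 CPM, also without overlap, with a log2 fold change of -0.16 (edgeR unadjusted p = 0.102), and -0.11 without Snhg11-ASO replicate 1.

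A list of 28 synaptic vesicle and fusion genes of the same terminals gave 21 lower and 7 higher values, with the median log2 fold change at -0.10. Of these, 5 were lower and 0 higher at an unadjusted p under 0.05, against 4.43% and 3.68% of all genes. The groups of 6 did not overlap and were lower, against 7.7% of all genes, and 0 passed an adjusted p of 0.05 in edgeR. After the span offset the median of the list was -0.09, and 3 were lower at an unadjusted p under 0.05, against 3.56% of all genes. The 5 were Sh3gl2 (endophilin A1), Syt1 (the calcium sensor of fast release), Stx1a (a plasma membrane SNARE), Syn3 (a synapsin) and Cplx1 (a complexin). Sh3gl2 measured 94.1, 95.1 and 86.9 CPM under Control-ASO and 63.1, 75.1 and 66.0 CPM under Snhg11-ASO (log2 fold change -0.43, edgeR adjusted p = 0.439), and in DESeq2 its adjusted p was 0.0288. Syt1 was at 915, 913 and 987 against 737, 796 and 725 CPM (log2 fold change -0.32). Stx1a was at 39.4, 35.8 and 50.05 against 30.7, 30.8 and 30.9 CPM (log2 fold change -0.44). Syn3 and Cplx1 had log2 fold changes of -0.37 and -0.24, both without overlap. At Syn3, 63.3% of the strand-assigned read pairs were counted on the other strand. After the span offset Syt1, whose gene spans 513 kb, was at -0.08 (edgeR unadjusted p = 0.420), Syn3 at -0.16 (0.234) and Sh3gl2 at -0.22 (0.0294), while Stx1a was at -0.46 and Cplx1 at -0.26. Syt1 is also among the 12 neuron markers, of which 10 were lower and 2 higher (median log2 fold change -0.11, and -0.05 without Snhg11-ASO replicate 1).

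The genes whose pattern over the 6 samples was most like the mean log2 CPM of the 10 genes were taken from 9803 genes with a mean of at least 10 CPM. They were Tsc1 (Pearson r = 0.984), Atp11a (0.983), Nfyc (0.983), Afdn (0.979) and Tnik (0.977). The mean they follow was 7.18, 7.03 and 7.19 log2 CPM under Control-ASO and 7.09, 6.96 and 6.77 under Snhg11-ASO. It is not a pattern that the 10 genes share. Their correlations with each other ranged from -0.776 (Rims2 and Rimbp2) to 0.955 (Rims2 and Rims3). In Control-ASO replicate 2 Unc13c was at -1.08 from its Control-ASO mean, the lowest of the 10 genes in that sample. Tnik, for example, measured 299, 272 and 294 CPM under Control-ASO and 293, 248 and 219 CPM under Snhg11-ASO, lowest in the same sample as Rims1 and Pclo. These correlations are the highest of many over 6 samples and describe the order of the samples only.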

How the data were processed

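RNA of the dorsal hippocampus was measured in 3 Control-ASO and 3 Snhg11-ASO samples, grouped by the sample labels. Libraries were made from total RNA with a stranded kit. The authors aligned read pairs to mm10 (GRCm38) with STAR 2.5.2a, per the submitters' processing notes, and deposited 1 table of raw gene counts per sample, not normalized. Rsubread is the counter named in the methods, but the tables have STAR's layout. STAR leaves out pairs that map to several places or to more than 1 gene. The 4 summary lines of each table, which name no gene and held 43.5% to 51.4% of read pairs, were left out.

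Counts of the reverse strand, which held 96.2% to 96.8% of the strand-assigned pairs, were used. Symbols, positions, spans and exons came from GENCODE M21 (GRCm38), which matched 55141 of 55401 identifiers. Genes were filtered with filterByExpr (minimum count 10), scaled with TMM factors (0.982 to 1.02) and tested with edgeR's quasi-likelihood test (edgeR 4.0.16, R 4.3.3), with Benjamini-Hochberg adjustment over 19969 genes at 0.05. The common biological coefficient of variation was 0.266. The study removed 1 Snhg11-ASO sample that its methods do not name, and all 6 were kept here. Single values were compared with two-sided exact permutation tests (scipy 1.17.1). The sources say that 3 hippocampi per group were sequenced and give no further pairing or batch, so p-values measure the spread between these samples.

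All 10 active zone genes are named. From the 28 other active zone genes and the 28 vesicle genes, those at an unadjusted p under 0.05 (up to 8 per list) and the relatives Rims4, Unc13b and Tspoap1 are named, with the 5 genes most alike in pattern. The members and lists were chosen with earlier results of these data known. Alternatives were DESeq2 1.42.0, scaling by DESeq2's size factors or by upper quartiles, both strands counted together, another filter (mean count 10 or none), the replicate number as a block, per-sample loess offsets (span 0.3) against genomic span or GC content, and leaving out each sample. Deviations of samples with the same number correlated at 0.297, 0.179 and 0.103, and correlations between unlike numbers were not computed. These values alone cannot show pairing, so the replicate number was used as a block in alternative fits only. The main fit, DESeq2 and the permutation tests were not paired. The block comes from the values, since the labels do not say what a number marks. The fits were also run on simulated counts as a check of the code. The changes put into single genes there were larger than those of the 10 genes, so changes of their size were not checked. Sequences are from RefSeq (GRCm38.p6).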

Additional observations from a re-analysis of the deposited data

How the results depend on the processing

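The results were recomputed under 20 alternatives. Rims1, Rims2, Rims3 and Pclo were the 4 lower at an unadjusted p under 0.05 in DESeq2 and under the other scalings, strands and filters too. In those fits 2.92% to 4.67% of all genes were lower at that p. The same 4 were lower with the replicate number as a block, against 4.6% of all genes. The block changed no call among the 10 genes (median log2 fold change -0.204) and took Rims4 to an edgeR unadjusted p of 0.0505. All of these fits use the same 6 samples and are not independent of each other. With the GC offset the genes were the same but for Pclo, against 4.15% of all genes. Pclo was among them again with the GC offset and block, against 4.32%. With the genomic span offset the count was 1, against 3.56% of all genes, and 1 again with the replicate block, against 3.78%. The count without overlap was 1 without the block, and the share of all genes was not computed for it. The median was -0.071, or -0.0715 with the block. By construction this offset removes the average difference of genes of like span. Leaving out 1 sample in edgeR gave counts of 2 to 3, where 2.59% to 5.54% of all genes were lower. Rims3 was counted in 6 of 6 fits, Rims1 in 4, Rims2 and Pclo in 2 each, and Unc13c in 1 (without Control-ASO replicate 2). The median then ranged from -0.264 without Snhg11-ASO replicate 1 to -0.131 without Snhg11-ASO replicate 3, and the cause was not tested. DESeq2 without Snhg11-ASO replicate 3 gave a count of 2, against 3.87% of all genes, and a median of -0.128. Without Snhg11-ASO replicate 1 DESeq2 gave a count of 4, against 5.43%, and a median of -0.267. DESeq2 without Snhg11-ASO replicate 2 gave a count of 3, against 4.05%. In that fit 1 of the 10 genes (Rims1) passed the adjusted threshold, against 1.64% of genes with an adjusted p.

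Some values changed sign. Bsn ranged from -0.268 to 0.349 and Erc1 from -0.105 to 0.152 over the edgeR fits without 1 sample, and in DESeq2 without Snhg11-ASO replicate 1 they were -0.271 and -0.109. Erc1 was -0.0274 without Control-ASO replicate 3. Erc2 was 0.208 with the span offset and 0.202 with the span offset and block. Without 1 sample, the difference of the Rims1 to Rims2 ratio ranged from -0.194 to 0.0643 (0.0393 without Control-ASO replicate 2), that of Unc13c to Unc13a from -0.977 to 0.0682, and that of Erc2 to Erc1 0.0167 with the span offset. The count without overlap and the ratios have no value under the replicate block, since no model is fitted. With 3 samples a group, the standard errors of the 10 log2 fold changes were 0.11 to 0.40.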
